A study of Rattus norvegicus with 18 samples.

Results

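DNA methylation was described around 4 CpGs that carry the names of the Cacna1a, Cacna1b, Cacna1c and Cacna1d genes. The members were all CpGs within 50 kb of rn6 positions chr19:25668345-25668345 (Cacna1a), chr3:1913994-1913994 (Cacna1b), chr4:150769723-150769723 (Cacna1c) and chr16:6130045-6130045 (Cacna1d). With at least 10 reads per cytosine in at least 1 striatum and the strands merged, there were 422 of them among 1451601 CpGs in all. The window of Cacna1a held 186, that of Cacna1b 81, that of Cacna1c 45 and that of Cacna1d 110. The 4 positions were chosen by their difference in methylation between treated and UNT rats, so that their values in these comparisons are given as a description without a test.

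Cacna1 genes encode the pore-forming alpha1 subunits of voltage-gated calcium channels, which open when the membrane is depolarised and let calcium into the cell. Cacna1a encodes Cav2.1, the pore of P/Q-type channels, and Cacna1b encodes Cav2.2, the pore of N-type channels. Both are known for triggering transmitter release at nerve terminals. Cacna1c and Cacna1d encode Cav1.2 and Cav1.3, the pores of L-type channels, which carry calcium into the cell body and dendrites of striatal projection neurons and other cells. Methylation of cytosines in CpGs is usually low at active CpG-rich promoters and high in gene bodies.

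The animals were juvenile male Wistar rats, and all of them carried a 6-OHDA lesion of the left medial forebrain bundle, made on postnatal day 21. 6-OHDA is a toxin that destroys dopaminergic neurons. From postnatal day 35 to 49, over 2 weeks, the UNT group was given saline, the L-DOPA group L-DOPA with benserazide, and the L-DOPA + R group L-DOPA with benserazide and Riluzole, a drug that dampens glutamate transmission. A final treatment was given on day 53, when both striata, the control and the lesioned one, of 3 rats per group were taken for reduced representation bisulfite sequencing (RRBS). In RRBS, DNA is cut by MspI, and unmethylated cytosines are converted and read as T. As a model, the design has no rat without a lesion and no group with Riluzole alone, so that the control striatum is the uninjected side of a lesioned, and in 2 groups treated, animal. The striata were sequenced as bulk tissue, in which a change of methylation within cells cannot be told apart from a change in the mix of cell types. The study states that tissue of these striata had been analysed for transcription before. Those values were not used here, so that the tissue was not checked against its markers.

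Depth differed between the groups. The files held 30288745 to 49113957 calls for a striatum of UNT, 18471279 to 30764504 for L-DOPA and 19383285 to 25846139 for L-DOPA + R. A UNT striatum held 281 to 355 members with at least 10 reads, an L-DOPA striatum 164 to 260 and an L-DOPA + R striatum 179 to 242. The median coverage of these members was 19 to 27 reads for UNT, 15 to 20 for L-DOPA and 16 to 20 for L-DOPA + R. All 18 striata covered 85 members, 40 of them near Cacna1a, 14 near Cacna1b, 11 near Cacna1c and 20 near Cacna1d. In 4 or more of the 6 striata of UNT, but in fewer of both treated groups, 73 members were present, which was 17.3% of the members against 19.0% of all CpGs. Conversely, 4 members (0.948%) were present in this way in a treated group but not in UNT, against 2.29% of all CpGs. Up to 6 libraries were pooled before the bisulfite treatment. The labels do not say which, so a pool and a treatment cannot be told apart here.

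The CpGs of the windows were more often highly methylated than all CpGs. Where 4 or more striata of each group covered a CpG, 75 of 157 members (47.8%) had a level above 80% over all reads, and 35 (22.3%) had a level below 20%. Of all 556340 such CpGs, 35.3% lay above 80% and 42.4% below 20%. The windows differed among themselves. Near Cacna1b, 16 of 36 CpGs were below 20%, near Cacna1a 16 of 63 and near Cacna1d 3 of 40, while near Cacna1c this was true of 0 of 18. The median level was 66.7% near Cacna1a, 55.5% near Cacna1b, 88.2% near Cacna1c and 86.4% near Cacna1d, against 48.4% of all CpGs.

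**Figure D1:**
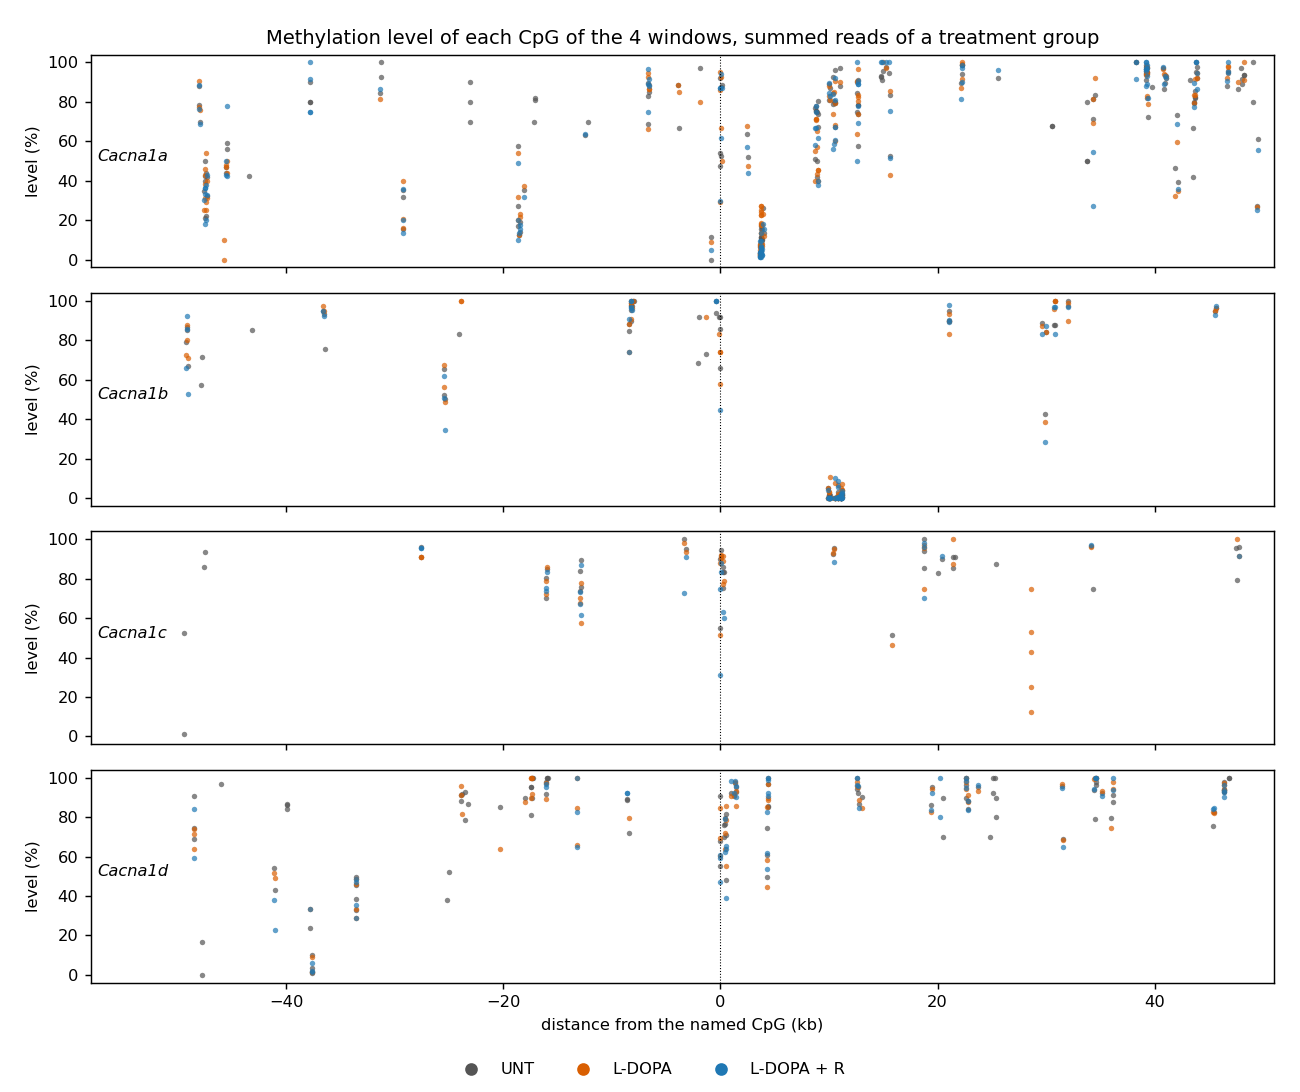
Methylation level of each member in percent, over the summed reads of a treatment group, against its distance from the named CpG in kb. Colours stand for UNT, L-DOPA and L-DOPA + R. The CpGs of the Cacna1b window about 10 to 11 kb after the named CpG lie near 0% in each group, and most CpGs of the Cacna1c window lie above 80%.

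A stretch of low methylation was found next to the start of Cacna1b. Its 34 consecutive CpGs, from 9916 to 11216 bp after the named position (chr3:1923910-1925210), had a level of 1.14% ± 0.191 for UNT, 1.87% ± 0.507 for L-DOPA and 0.958% ± 0.428 for L-DOPA + R (mean ± SD over 3 rats of each group). The rats ranged from 0.969% to 1.35% for UNT, from 1.53% to 2.45% for L-DOPA and from 0.498% to 1.35% for L-DOPA + R. None of the 34 CpGs was present in all 18 striata, so that different CpGs entered the level of each rat, and the groups were not tested against each other. Such runs were sought, after the values were seen, as at least 3 consecutive members below 20% and at most 500 bp apart.

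Sequence of the promoter of Cacna1b is shown because the run of low methylation could be placed on it. RefSeq gives Cacna1b on the minus strand of GRCr8, a later build than the rn6 of these files. Positions were therefore not converted, and the spacing of CpGs was compared instead. The 300 bases around the RefSeq gene start hold 34 CpGs, and with the start of the sequence placed on chr3:1924902-1925201 of rn6, 21 of them coincided with a cytosine called with at least 3 reads in some striatum. These were all 21 called CpGs of this stretch, and the next best placement on the chromosome shared 14. The promoters of the other 3 genes were not placed, since the best and the next best placement shared 20 and 17 CpGs for Cacna1a, 4 and 4 for Cacna1c and 21 and 21 for Cacna1d. The sequence reads 5′ to 3′ along the gene, and the capitals mark the 13 CpGs that were covered by 10 or more reads in these striata.
Cacna1b promoter (RefSeq, GRCr8, minus strand): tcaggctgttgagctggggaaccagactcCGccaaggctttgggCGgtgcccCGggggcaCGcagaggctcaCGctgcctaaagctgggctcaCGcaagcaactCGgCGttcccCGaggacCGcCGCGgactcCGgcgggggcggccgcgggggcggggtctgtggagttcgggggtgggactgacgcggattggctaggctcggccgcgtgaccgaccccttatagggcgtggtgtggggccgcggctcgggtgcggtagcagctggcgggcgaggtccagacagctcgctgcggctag
The 13 CpGs in capitals lay between bases 30 and 135 of the sequence, before the gene start. Their levels over all reads ranged from 0% to 2.69%, with a median of 0.485%. With this placement, the gene start lies 10957 bp after the named position on the plus strand, so that the named CpG of Cacna1b lies at this distance into the gene, in the direction of transcription. Whether it falls in an exon or an intron, and where the other 3 positions lie in or beside their genes, was not analysed here, since it needs the annotation of rn6. Their gene names follow the nearest gene in the annotation of the study.

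Near Cacna1a, 2 runs of low methylation were found. The longer one had 23 CpGs from 3662 to 3871 bp after the named position (chr19:25672007-25672216). Its level was 7.04% ± 1.78 for UNT, 8.67% ± 3.21 for L-DOPA and 3.99% ± 1.66 for L-DOPA + R (SD, n = 3 rats each). Of these CpGs, 8 were present in all 18 striata and 14 lie 46 to 50 bases past another called cytosine of their strand, so that the levels of the rats rest on different CpGs, and the groups were not tested against each other. The other run had 4 CpGs from 18614 to 18446 bp before the position, at 16.3% ± 6.87, 18.8% ± 2.76 and 14.2% ± 4.52 in the same order. The 3 CpGs of the run near Cacna1d, 37654 to 37622 bp before the position (chr16:6092391-6092423), had 4.97% ± 1.31, 4.20% ± 0.632 and 3.39% ± 0.646. No such run was found near Cacna1c.

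At the named position of Cacna1a, treated striata had a lower merged level than UNT striata. The level over the 6 UNT striata had a lowest value of 40.4%, a median of 48.1% and a highest of 53.2%. L-DOPA striata had 20.6%, 31.1% and 38.7%, and L-DOPA + R striata 17.1%, 32.1% and 36.7%. All treated striata lay below all UNT striata, and the treated groups overlapped each other. Over rats, the level was 47.3% ± 3.44 for UNT, 29.7% ± 6.87 for L-DOPA and 29.3% ± 4.42 for L-DOPA + R (SD, n = 3). From summed reads, L-DOPA minus UNT was -18.1 percentage points and L-DOPA + R minus UNT -17.8.

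**Figure D2:**
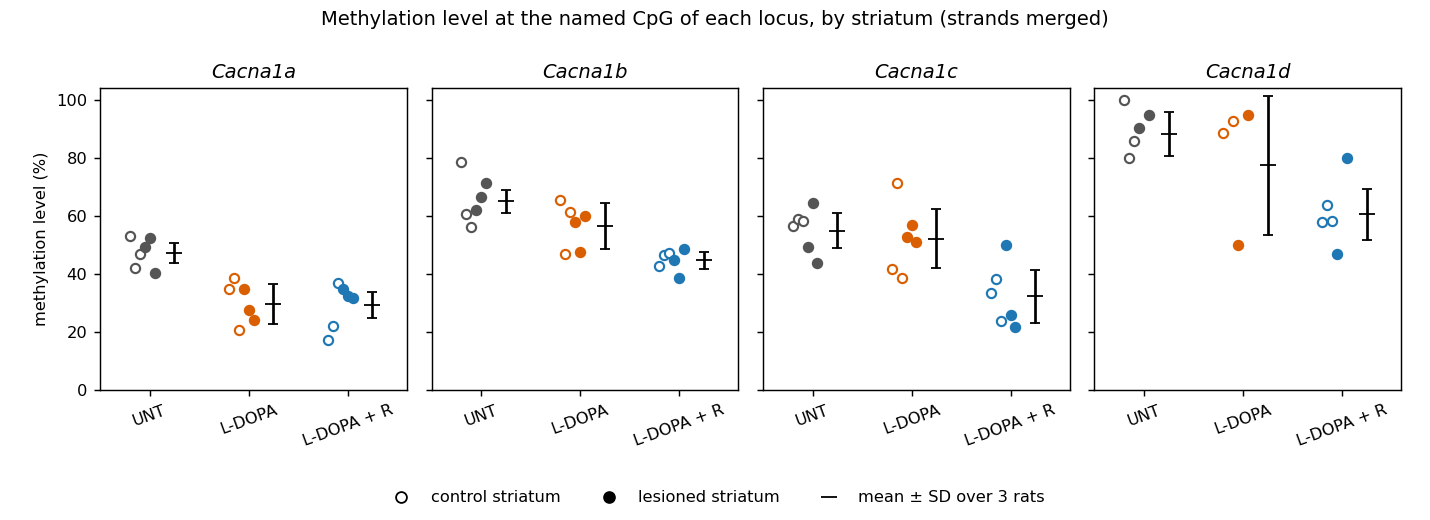
Methylation level in percent at the named CpG of each locus, with 1 point for each striatum with 10 or more reads, open for the control and filled for the lesioned side, and the mean ± SD over 3 rats beside them. Striata of L-DOPA + R lie below all UNT striata at Cacna1a and Cacna1b, and reach the lowest UNT striata at Cacna1c and Cacna1d. At Cacna1a, the UNT points join both strands, while the treated points come from the plus strand alone. On the plus strand, UNT striata had 16.7% to 36.8% there, which overlaps both treated groups.

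The strands of this CpG of Cacna1a differed from each other. On the plus strand, the level was 26.8% for UNT (121 of 451 reads), 29.3% for L-DOPA (76 of 259) and 29.6% for L-DOPA + R (74 of 250). The plus strand of single striata ranged from 16.7% to 36.8% in UNT, which overlaps the ranges of both treated groups. On this strand alone, L-DOPA minus UNT was 2.51 points and L-DOPA + R minus UNT 2.77 points, the opposite sign of the merged differences. On the minus strand, the UNT striata had 87.5% to 95.2%, with a median of 90.3%, over 21 to 48 reads each. The 6 L-DOPA striata had 0 reads of this strand, and in the L-DOPA + R striata it had 3 reads in all. The merged level of UNT therefore joined both strands, while that of the treated groups came from the plus strand alone.

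The CpG 48 bp before the position, at the other end of the same stretch of reads, showed the mirror image. It had the widest range over the 9 rats among the CpGs of the Cacna1a window present in all striata, 43.2 points, against a median range of 15.6 points. Its merged level was 53.9% for UNT, 85.9% for L-DOPA and 87.0% for L-DOPA + R. The plus strand had 82.5% for UNT, 85.9% for L-DOPA and 87.0% for L-DOPA + R, with overlapping striata. The minus strand had 7.24% for UNT, from 0% to 13.9% over the striata, and 0 reads for L-DOPA and 3 for L-DOPA + R. The CpG 27 bp before the position, which lies between these, had high levels on each strand. Its plus strand had 93.3% for UNT, 95.3% for L-DOPA and 87.0% for L-DOPA + R, and its minus strand 89.7% for UNT.

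**Figure D3:**
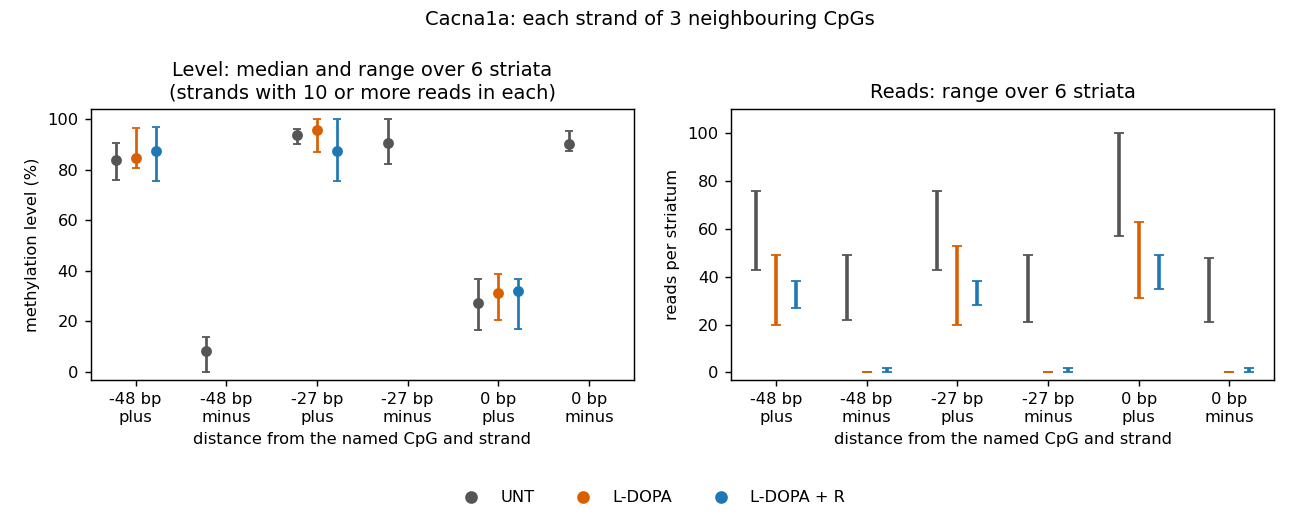
Left, methylation level in percent on each strand of the named CpG of Cacna1a and of the CpGs 27 and 48 bp before it, as median and range over the 6 striata of a group where each had 10 or more reads. Right, the range of reads per striatum. On the minus strand, UNT striata had 21 to 49 reads and treated striata 0 to 2, while plus-strand levels of the groups overlap.

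The counts of plus-strand reads along this stretch were set side by side. In UNT, 360 reads covered the CpG at -48 bp, 451 the named CpG and 87 the CpG at 47 bp, so that the named CpG had 91 reads more than the one before it. At the named CpG, 330 reads were unmethylated and 121 methylated. In L-DOPA, 185, 259 and 71 reads covered the 3 CpGs, the excess was 74 reads, and 183 reads were unmethylated and 76 methylated. In L-DOPA + R, the reads were 192, 250 and 58, the excess was 58, and 176 were unmethylated and 74 methylated. In each of the 18 striata, the excess differed from the reads at 47 bp by at most 3 reads, and the unmethylated reads differed from the reads at -48 bp by at most 8. The named CpG lies within 46 to 50 bases after another called cytosine of its strand, which was true of 37 of the 422 members (8.77%) and of 14.4% of all CpGs. It was not true of the named CpGs of Cacna1b, Cacna1c and Cacna1d. Whether the plus-strand calls at the named CpG of Cacna1a, and the minus-strand calls at -48 bp, stand for methylation of the tissue was not tested, since the reads and the sequence of rn6 were not used here.

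Loss of a strand in treated striata was also counted over the genome. Among 96060 CpGs with at least 10 reads on both strands in every UNT striatum, 628 (0.654%) had at most 2 reads on a strand in every L-DOPA striatum while the other strand kept 10 or more, and 739 (0.769%) in every L-DOPA + R striatum. In the opposite direction, 969 of 23158 CpGs (4.18%) with both strands in every L-DOPA striatum lacked a strand in UNT. Between L-DOPA and L-DOPA + R, 5 of 23158 and, the other way round, 5 of 34626 CpGs had lost a strand. The covered strands thus differed mainly between UNT and both treated groups. At Cacna1a, the difference on the plus strand alone is given above. The part of strand loss in the merged differences was not tested, at Cacna1a or at other CpGs.

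The remaining neighbours of the Cacna1a position were shallow. Over all reads, the plus strand of the CpG at 47 bp had 88.5% for UNT (87 reads), 84.5% for L-DOPA (71) and 93.1% for L-DOPA + R (58). The minus strand of the CpG at 79 bp had 55.3% (85 reads), 53.7% (41) and 68.0% (50). The striata of the groups overlapped at both. The next member on the other side of the stretch, 880 bp before the position, had 11.6%, 8.97% and 4.65%.

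At the named position of Cacna1b, the level was lowest in L-DOPA + R. The UNT striata had a lowest level of 56.1%, a median of 64.3% and a highest of 78.7%. The L-DOPA striata had 47.1%, 59.0% and 65.5%, and the L-DOPA + R striata 38.5%, 45.7% and 48.5%. Each L-DOPA + R striatum lay below each UNT striatum, while L-DOPA overlapped both other groups. Over rats, this gave 65.0% ± 4.12, 56.6% ± 7.99 and 44.8% ± 2.91 (SD, n = 3). The difference from UNT was -7.97 points in L-DOPA and -21.0 points in L-DOPA + R, and L-DOPA + R minus L-DOPA was -13.1 points. L-DOPA minus UNT was -4.56 points without the second L-DOPA rat and -4.78 points without the first UNT rat.

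These values of Cacna1b came from the minus strand, with 33 to 71 reads per striatum for UNT, 17 to 31 for L-DOPA and 19 to 35 for L-DOPA + R. No striatum had more than 9 reads on the plus strand, where the summed levels were 56.7% (17 of 30 reads), 44.4% (4 of 9) and 50% (7 of 14). The plus strand is too shallow to show a difference of this size. The nearest members, 74 and 90 bp before the position, were covered on the plus strand, with 90% and 93.4% for UNT, 79.6% and 73.5% for L-DOPA and 87.1% and 77.4% for L-DOPA + R, over all 31 to 61 reads of a group. On the other side, the next member was the first CpG of the run of low methylation. Among the CpGs near Cacna1b present in all striata, the one with the widest range over rats lay 29909 bp after the position, with 36.4% to 49.0% for UNT rats, 35.9% to 45.2% for L-DOPA rats and 20.9% to 32.8% for L-DOPA + R rats. At this CpG, the L-DOPA + R rats lay below all other rats.

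At the named position of Cacna1c, UNT and L-DOPA overlapped and L-DOPA + R was lower. The level of the UNT striata was at least 43.8%, with a median of 57.3% and a maximum of 64.5%. L-DOPA striata had 38.5%, 51.9% and 71.4%, and L-DOPA + R striata 21.9%, 29.6% and 50%. The groups overlapped in striata, and over rats L-DOPA + R lay below both other groups. The means over rats were 54.9% ± 6.07 for UNT, 52.2% ± 10.3 for L-DOPA and 32.3% ± 9.27 for L-DOPA + R (SD, n = 3). Differences from UNT were -3.21 points for L-DOPA and -23.5 for L-DOPA + R, and L-DOPA + R minus L-DOPA was -20.3 points. The sign of L-DOPA minus UNT rested on single rats, with 0.714 points without the third and -8.51 points without the second L-DOPA rat, 0.0528 points without the second UNT rat, -8.23 points over control and 1.18 points over lesioned striata. Among the CpGs of its window present in all striata, this one also had the widest range over rats, 41.0 points, against a median of 15.1. Since the position was chosen by a difference between groups of these rats, its wide range follows in part from the choice.

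Only the plus strand covered the CpG of Cacna1c, with 55 to 83 reads per striatum for UNT, 42 to 53 for L-DOPA and 26 to 42 for L-DOPA + R. The 3 CpGs beside it were covered by nearly the same number of reads of that strand and had higher levels. At 7 bp before it, the level was 90% for UNT, 88% for L-DOPA and 74.9% for L-DOPA + R. At 25 bp after it, the levels were 94.6%, 91.9% and 83.3%, and at 33 bp after it 91.6%, 90.5% and 88.2%. Each of the 3 was lowest in L-DOPA + R, and each difference from UNT was smaller than that of the named CpG. The striata of the groups overlapped at all 3.

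At the named position of Cacna1d, the coverage was the lowest of the 4. It had at least 10 reads in 5 striata of UNT, 4 of L-DOPA and 5 of L-DOPA + R. In UNT, the control striata had 100%, 80% and 85.7% and the lesioned striata of rats 1 and 3 had 90.5% and 94.7%. In L-DOPA, the control striata of rats 1 and 3 had 88.5% and 92.9%, and the lesioned striata of rats 2 and 3 had 50% and 95%. In L-DOPA + R, the control striata had 57.9%, 63.6% and 58.3%, and the lesioned striata of rats 2 and 3 had 47.1% and 80%. The 4 striata of L-DOPA + R other than the lesioned one of rat 3 lay below all UNT striata, and that one was at the level of the lowest UNT striatum. Means over rats were 88.2% ± 7.63, 77.5% ± 24.0 and 60.6% ± 8.72 (SD, n = 3). The difference from UNT was -6.09 points in L-DOPA and -30.0 points in L-DOPA + R. That of L-DOPA rested on single striata, since it was 0.850 points without the second and -14.5 points without the third L-DOPA rat, 0.345 points over control and -14.4 points over lesioned striata.

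The minus strand gave all these values of Cacna1d. The striata just under the minimum of 10 reads had 88.9% in the lesioned UNT striatum of rat 2 (9 reads), 100% and 83.3% in the control striatum of rat 2 (7 reads) and the lesioned striatum of rat 1 (6 reads) of L-DOPA, and 88.9% in the lesioned striatum of rat 1 of L-DOPA + R (9 reads). With them, the summed level of L-DOPA + R was 63.9% (53 of 83 reads) against 90.7% (97 of 107) for UNT and 85.9% (73 of 85) for L-DOPA. The plus strand had 15 reads for UNT, 6 for L-DOPA and 4 for L-DOPA + R in all. The neighbours 86 and 65 bp before the position had 55.3% and 67.7% for UNT, 60.2% and 69.6% for L-DOPA and 47.3% and 59.2% for L-DOPA + R. Among the CpGs near Cacna1d present in all striata, the widest range over rats was at 41164 bp before the position, from 36.1% in UNT rat 2 to 61.3% in UNT rat 1, so that rats of a single group spanned it.

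Over the windows, few members beside the 4 positions were called. Each CpG was fitted with a logistic model and a chi-square test over all CpGs, with a q under 0.01 as call. In L-DOPA against UNT, 2 of 197 tested members were called, the named CpG of Cacna1a and the CpG 48 bp before it, and 0.351% of all 654563 tested CpGs. In L-DOPA + R against UNT, 5 of 183 members were called, the 4 named CpGs and the same neighbour of Cacna1a, beside 0.445% of all 643889 tested CpGs. The rule chose the positions on these calls, so that nothing is read from the counts. The F test called 0 members in each of the comparisons, and 0.0622% and 0.0578% of all CpGs. Without cytosines 46 to 50 bases past another, 0 and 2 members were called, and 0.0782% and 0.132% of all CpGs. With the rat as the unit, these were 1 and 4 members, and 0.331% and 0.481% of all CpGs. Leaving out the third L-DOPA rat or the first UNT rat brought the count of L-DOPA against UNT from 2 to 1. Of all CpGs, 0.32% and 0.299% were called then. In L-DOPA + R against UNT, the count fell from 5 to 1 without the first UNT rat, to 2 without the first or the second and to 3 without the third L-DOPA + R rat. The shares of all CpGs were 0.363%, 0.378%, 0.354% and 0.475% in this order, the last above the 0.445% with all rats.

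The median difference over the tested members was 0 points in L-DOPA against UNT and -0.83 points in L-DOPA + R against UNT, where over all CpGs it was -0.01 and -0.26 points. In L-DOPA + R against UNT, 109 of 183 members (59.6%) had a negative difference, and 52.8% of all CpGs. By window, 50 of 78 members were negative near Cacna1a, 23 of 43 near Cacna1b, 16 of 20 near Cacna1c and 20 of 42 near Cacna1d. The median of the Cacna1c window was -4.52 points, and several of its CpGs share reads. In L-DOPA against UNT, 92 of 197 members (46.7%) were negative, and 50% of all CpGs. These were 34 of 78 near Cacna1a, 21 of 48 near Cacna1b, 17 of 22 near Cacna1c, with a median of -1.78 points, and 20 of 49 near Cacna1d. In lesioned against control, 15 of 19 members of the Cacna1c window were negative within UNT, 6 of 12 within L-DOPA and 6 of 14 within L-DOPA + R. Both comparisons share the UNT striata.

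**Figure D4:**
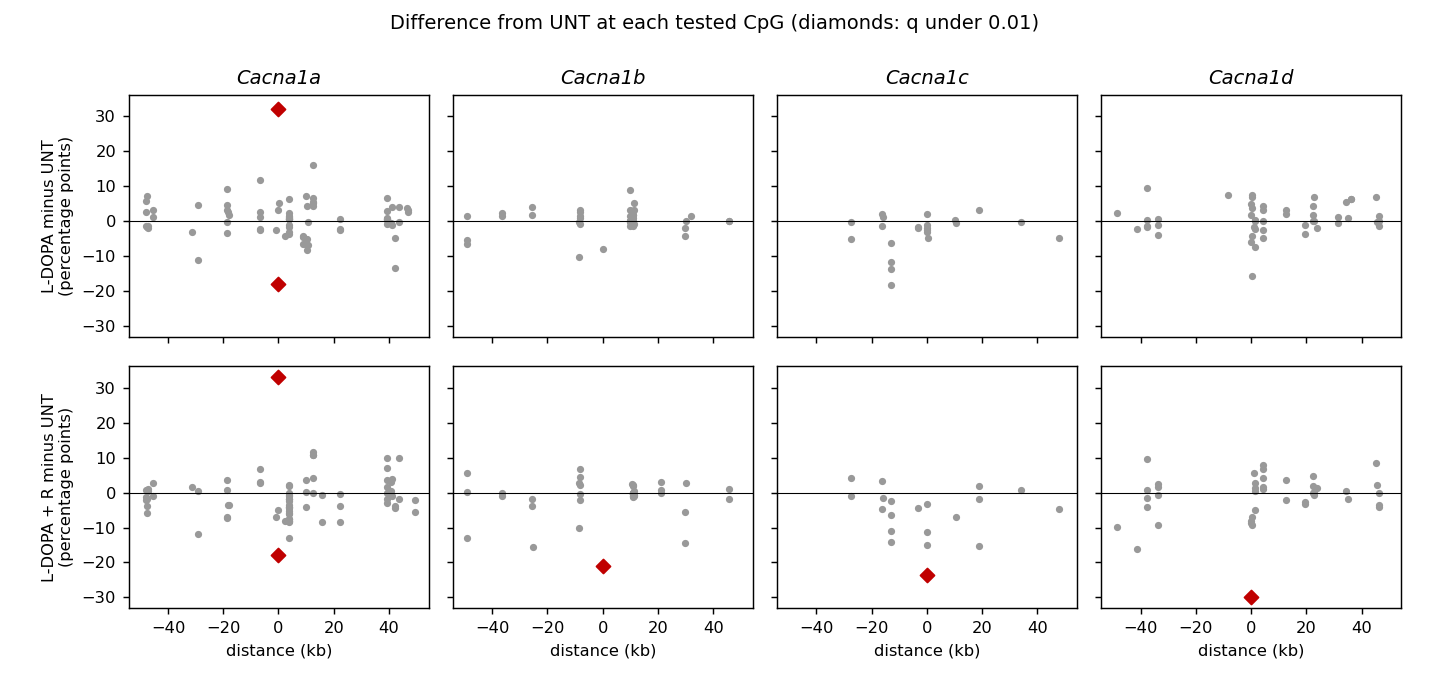
Difference in methylation from UNT in percentage points at each tested member, against its distance from the named CpG in kb, with L-DOPA above and L-DOPA + R below. Diamonds mark CpGs with a q under 0.01, in the comparisons on which the positions were chosen. The diamonds lie at or within 48 bp of the named CpGs, and the pair near Cacna1a points in opposite directions.

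L-DOPA + R was also compared with L-DOPA. The chi-square test called 0 of 158 members, and 0.0477% of all 568416 CpGs, while 14 members (8.86%) had an unadjusted p under 0.05, against 7.09% of all CpGs. The F test called 0 members as well, and 0.000352% of all CpGs. The 4 named CpGs were among those not called. From summed reads, L-DOPA + R minus L-DOPA was 0.256 points at Cacna1a and -23.9 points at Cacna1d. At Cacna1d, the means over rats differed by -16.9 points, and the rats of both groups overlapped. Since both treated groups entered the choice of the positions, the differences at the named CpGs given here and above remain a description.

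The lesioned striatum was compared with the control striatum of the same number in its group, taken as that of the same rat, which the choice of the positions had not used. At Cacna1a, the lesioned striatum was higher in 4 rats, lower in 4 and equal in 1, with a mean difference of 1.74 points ± 9.51 (SD, n = 9, p = 0.617, exact two-sided sign-flip test). At Cacna1b, it was higher in 5 and lower in 4 rats, with -0.909 points ± 9.15 (n = 9, exact p = 0.758). At Cacna1c, it was higher in 4 and lower in 5, with -0.538 points ± 12.3 (n = 9, exact p = 0.906). At Cacna1d, 5 rats had both striata, of which 3 were higher on the lesioned side, with 1.35 points ± 15.1 (exact p = 0.875, where 0.0625 is the smallest possible). The mean differences were smaller than the spread between rats at each of the 4 positions.

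**Figure D5:**
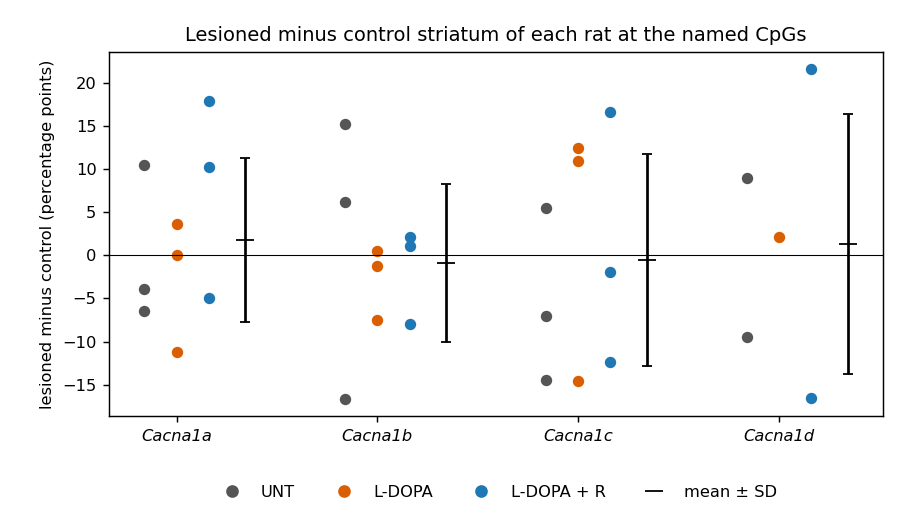
Lesioned minus control striatum in percentage points for each rat at the named CpGs, coloured by treatment, with the mean ± SD over 9 rats (5 at Cacna1d). The points of each position lie on both sides of 0.

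In none of the windows did the fit call a CpG between the sides. In UNT, 0 of 217 tested members were called, beside 0.00193% of all CpGs, and 21 (9.68%) had an unadjusted p under 0.05, against 6.45% of all CpGs. In L-DOPA, 0 of 107 were called, beside 0.00101% over all, and 3 (2.80%) had such a p, against 5.40%. In L-DOPA + R, 0 of 118 were called, beside 0.00176%, and 12 (10.2%) had such a p, against 6.29%. With the 9 rats together and the rat as a block, 0 of 85 were called, beside 0.0078%, and 3 (3.53%) had such a p, against 7.53%. The F test called 0 members in each of these comparisons, and 0% of all CpGs, so that nothing is read from this about the windows. At 85 members present in all striata, lesioned minus control ranged from -6.30 to 10.7 points, with a median of 0.91 points and a median of 0 over all CpGs.

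Whether the treatments differed in their effect between the sides was tested as an interaction. Of 103 members in L-DOPA against UNT, 113 in L-DOPA + R against UNT and 88 in L-DOPA + R against L-DOPA, 0 were called by the chi-square test or the F test. An unadjusted p under 0.05 was reached by 11 (10.7%), 13 (11.5%) and 9 (10.2%) of them, and by 6.05%, 6.44% and 6.12% of all CpGs tested. Over all CpGs, 0%, 0% and 0.000658% were called by the chi-square test, and 0% by the F test in each. At the named CpG of Cacna1c, L-DOPA + R minus UNT was -20.7 points in the lesioned and -26.8 points in the control striata. At Cacna1b these were -21.2 and -20.9 points, and at Cacna1a -14.3 and -21.2 points. The adjusted p of the interaction was 0.999 at each of these 3. At Cacna1a, these merged values set both strands of UNT against the plus strand alone of L-DOPA + R. On the plus strand, L-DOPA + R minus UNT was 2.77 points there over both sides. Cacna1d was not tested, since it lacked striata.

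Other genes of calcium channels were looked up in a list of 20, which holds the remaining alpha1 subunits and the alpha2delta, beta and gamma subunits. Positions were named for 3 of them in these samples, and since they had been chosen for their methylation here, their counts are no independent evidence. CpGs within 50 kb of them were counted, where 0.351% of all CpGs were called in L-DOPA against UNT and 0.445% in L-DOPA + R against UNT. Near Cacna1g, the pore of a T-type channel, 0 of 134 tested CpGs were called in L-DOPA against UNT and 0 of 126 in L-DOPA + R against UNT. Near Cacna2d3, an alpha2delta subunit, 0 of 18 and 0 of 15 were called. Near the 2 positions of Cacnb2, a beta subunit that binds the pore from inside the cell, 0 of 3 and 3 of 28 were called in L-DOPA against UNT, and 1 of 7 and 2 of 22 in L-DOPA + R against UNT. In L-DOPA + R against L-DOPA, between the sides and as an interaction, 0 of the CpGs tested near these positions were called. Near the Cacnb2 position chr17:81798783-81798783, no CpG could be tested between the sides in L-DOPA or over 9 rats, nor in the interactions of L-DOPA with UNT and of L-DOPA + R with L-DOPA.

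The last member inside and the first CpG outside each window were as follows. Near Cacna1a, the CpG 49499 bp after the position had 61.0% for UNT and 55.6% for L-DOPA + R in 9 striata, and the next one, 51052 bp after it, was covered in 1 UNT striatum, at 100%. Near Cacna1b, the CpG 49289 bp before the position had 79.1% for UNT, 72.5% for L-DOPA and 66.2% for L-DOPA + R, and the next one, 58642 bp before it, had 84.0%, 82.6% and 76.1%. Near Cacna1c, the outermost member, 49434 bp before the position, had 52.6% for UNT in 6 striata, and the first CpG outside, 52270 bp after it, had 94.2%, 93.2% and 87.1%. Near Cacna1d, the CpG 48536 bp before the position had 74.7%, 73.9% and 84.4% in 11 striata, and the one 51145 bp before it had 87.5% for UNT and 100% for L-DOPA + R in 3 striata.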

How the data were processed

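Both striata of 9 rats had been analysed by RRBS, with 3 rats per treatment (UNT, L-DOPA, L-DOPA + R). The authors trimmed single-end reads with Trim Galore 0.4.0 and mapped them to rn6 with Bismark. They deposited, for each cytosine of a CpG and strand, the coverage as a count of reads without a minimum or normalization, and the percent that was read as C or as T. Methylated reads were rebuilt from both and rounded to whole reads.

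Python 3.11.15, numpy 2.4.6, pandas 2.3.3 and scipy 1.17.1 were used. A minimum of 10 reads was set per cytosine and striatum, and both strands of a CpG were then summed. As in methylKit, CpGs over the whole genome were fitted by logistic regression, corrected for overdispersion and tested by chi-square. Here p was adjusted over all CpGs tested by the Benjamini-Hochberg method, which is not the default of methylKit. The code of the fit used here was tested on simulated data. Their reads were drawn without overdispersion or a rat effect, so that the error rate of calls in these striata was not tested. Between treatments, CpGs present in at least 4 of 6 striata of each group entered, and the striata of a rat, which are not independent, were separate samples. Between sides and in the interaction, CpGs present in all striata entered. Levels of groups are over summed reads, means ± SD over rats. Between treatments, p-values thus rest on 6 striata of 3 rats per group taken as separate samples.

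The series gives both striata of each animal, and the labels number them 1 to 3 on each side. Striata of the same number were taken as those of the same rat, which the labels do not state outright, and all values by rat rest on it. Their deviations from the group means correlated with a mean r of 0.0645 over CpGs (0.0336 to 0.112), above 0.1 in 2 of 9. In 9 of 9, it was higher than with the other control striata of the group.

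The members and lists were chosen with earlier results of these data known. Named CpGs were the 4 positions, tested CpGs within 100 bp, called members, the CpG with the widest range over rats of each window, and the members next to the positions. Alternatives were 20 reads, each strand alone, the F test, no overdispersion correction, coverage and read-distance filters, windows of 25 and 100 kb, each side alone, the rat as unit, the replicate block, and each rat left out.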

Additional observations from a re-analysis of the deposited data

Results flagged for a closer look

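At the named CpG of Cacna1d, the lesioned striatum of the second L-DOPA rat stood apart from the other striata of its group. Its level was 50% (6 of 12 reads, 95% Wilson interval 25.4% to 74.6%), and the other 3 L-DOPA striata with 10 or more reads lay between 88.5% and 95%. The interval covers the counting of reads alone, taken as independent. The control striatum of that rat had 7 reads, all methylated, and was below the minimum. Striata were compared in this way in 12 groups, at the 4 named CpGs and in 3 treatments, and chance flags about 1 in 20 groups.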

How the results depend on the processing

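Of 317 alternative values, 11 turned the direction of a tested or called value, and 22 counts moved by over 1.5 times. Of the other 284, 9 differences that were not called changed sign by less than the spread between rats, at Cacna1a in L-DOPA + R minus L-DOPA and at Cacna1c and Cacna1d in L-DOPA minus UNT. The count of members called in L-DOPA against UNT was 2, and it was 0 with the F test, with either strand alone or without cytosines 46 to 50 bases past another. It was 1 in control striata alone, in lesioned striata alone and with the rat as the unit, and 1 to 2 with each rat left out. In L-DOPA + R against UNT it was 5, and it was 0 with the F test, 1 in lesioned striata or on the plus strand, 2 on the minus strand or without cytosines 46 to 50 bases past another, 3 in control striata, 8 without the overdispersion correction and 1 to 5 with each rat left out. In L-DOPA + R against L-DOPA it was 0, and 1 within 100 kb or without the overdispersion correction. Of all CpGs, 0.0477% were called in that comparison, and 0.285% without the correction. Over all CpGs, 0.351% were called in L-DOPA against UNT, and 0.0622% with the F test, 0.14% on the plus and 0.128% on the minus strand, 0.0782% without cytosines 46 to 50 bases past another, 0.255% in control and 0.237% in lesioned striata. The shares of L-DOPA + R against UNT, in this order, were 0.445%, 0.0578%, 0.193%, 0.174%, 0.132%, 0.306% and 0.287%, and 1.22% without the overdispersion correction. In these settings, the calls over all CpGs moved the same way. With the rat as the unit, L-DOPA + R against UNT had 4 members called, but a higher share of all CpGs, 0.481%. With each rat left out, the shares ranged from 0.299% to 0.382% in L-DOPA against UNT and from 0.354% to 0.475% in L-DOPA + R against UNT. The highest of the latter came without the third L-DOPA + R rat, where 3 members were called. The cause was not tested.

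On the plus strand alone, the called differences of Cacna1a from UNT turned to 2.51 points in L-DOPA and 2.77 points in L-DOPA + R. Lesioned minus control at Cacna1a was -0.463 points on the minus strand, which had 10 or more reads in the 3 UNT rats alone. With each rat left out, it ranged from -0.270 to 3.36 points at Cacna1a, from -2.93 to 1.07 at Cacna1b, from -2.69 to 1.22 at Cacna1c and from -3.73 to 5.83 at Cacna1d, so that its sign rested on single rats.

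With the rat of both striata as a replicate block, 0 members were called between the sides in each treatment, as without it, and 0 over 9 rats without the block. Over all CpGs, the block raised the calls from 14 to 29 in UNT, from 4 to 23 in L-DOPA and from 7 to 32 in L-DOPA + R. Coverage limits the Cacna1d position most, with 10 to 28 reads in the striata kept. With at least 20 reads, it could not be compared in L-DOPA + R.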
